A study of Mus musculus with 27 samples.

Results

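MHC class I presents peptides cut inside the cell to CD8 T cells, and the 10 genes described here encode its main parts: the class I heavy chains *H2-K1* and *H2-D1*, their light chain *B2m* (beta-2 microglobulin), the peptide transporter *Tap1* and *Tap2*, the loading factor *Tapbp* (tapasin), the immunoproteasome subunits *Psmb8*, *Psmb9* and *Psmb10*, and the transactivator *Nlrc5*. They were taken by symbol from a table of 36333 genes, where each matched 1 row. All 10 passed the filter on low values in each tissue. The table covers 27 samples of liver, omental (abdominal) adipose tissue and skeletal muscle from male *Mlx*KO mice. Mlx is the shared dimerization partner of the MondoA and ChREBP transcription factors, in a network that overlaps with that of Myc. Floxed *Mlx* alleles on a C57Bl6 background (Mlx Flox/Flox) were excised body-wide by a tamoxifen-activated Cre recombinase (CreERT2) expressed from the ROSA26 locus. Mice were made with 1 or 2 copies of CreERT2. The authors state that those with 2 copies, named *Mlx*KO, served in all work after the first excision tests. Tamoxifen was given at weaning to mice of at least 15 g, in 5 daily injections at 75 mg/kg. The groups of both ages carried the same alleles and received the same tamoxifen. At 5 months, the same 4 mice gave all 3 tissues (X5L4299, X5L5001, X5L5238 and X5L5239 in liver, and the same numbers after X5F in adipose tissue and X5S in muscle), and at 20 months each tissue had 5 samples whose numbers tie no tissues together. The codes of these older samples begin with X18, and the supplement to the methods lists their animals at that lower age, while the labels give 20 months, the age used here. The 5-month labels hold 1 mouse fewer than the group size in the methods. By the same supplement, excision was less complete in muscle than in liver or adipose tissue, so in comparisons with muscle the tissue and the *Mlx* that remained cannot be told apart. It also lists more remaining *Mlx* RNA, on average, in the older than in the younger adipose and muscle samples, with overlapping ranges. In these tissues, age and remaining *Mlx* cannot be fully told apart either. WT mice were not analysed here, so ageing and ageing without Mlx cannot be told apart.

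In every nucleated cell, the proteasome cuts proteins into peptides, TAP1 and TAP2 carry them into the endoplasmic reticulum, and tapasin holds TAP beside empty class I molecules until a peptide fits. Interferon-gamma exchanges the constitutive catalytic subunits of the proteasome (PSMB5, PSMB6, PSMB7) for PSMB8, PSMB9 and PSMB10, whose cuts leave peptide ends that class I binds well. NLRC5 has no DNA-binding domain of its own and acts through an enhanceosome on the SXY module (S, X1, X2 and Y boxes) of class I promoters, while IRF1 and NF-kappaB act through sites of their own. Leukocytes carry more class I and immunoproteasome than hepatocytes, and muscle fibres carry very little class I.

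Of the 10 genes, 7 lie on chromosome 17 in the mouse MHC (build GRCm38.p6). *Tapbp* spans 33919478 to 33929290 on the plus strand and *H2-K1* spans 33996012 to 34000619 on the minus strand. The antigen-processing cluster follows, with *Psmb9* at 34182030 to 34187330 (minus strand), *Tap1* at 34187556 to 34197225, *Psmb8* at 34198195 to 34201454 and *Tap2* at 34204479 to 34216321 (all 3 plus). These 4 genes fit into 34.3 kb, and the start sites of *Psmb9* and *Tap1* stand back to back, 226 bases apart. *H2-D1* lies farther on, at 35263094 to 35267497 (plus strand). *B2m* is on chromosome 2 (122147687 to 122153082, plus strand), and *Nlrc5* (94434335 to 94527272, plus strand) and *Psmb10* (105935728 to 105938392, minus strand) are on chromosome 8.

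Promoter sequences were matched for 8 of the 10 genes in RefSeq (GRCm38.p6), as windows of 250 bases before to 50 after each start site. Shown here are the 200 bases before the start of the class I chains, all 3 of which were called higher in adipose tissue at 20 months, and the whole interval shared by *Psmb9* and *Tap1*. Capitals mark, on either strand, the IRF core AANNGAAA, the kappaB-like GGGANTNCC, the X2-like TGACG and the Y box CCAAT, which reads ATTGG on the other strand.
H2-K1 (chr17:34000334-34000533, minus strand): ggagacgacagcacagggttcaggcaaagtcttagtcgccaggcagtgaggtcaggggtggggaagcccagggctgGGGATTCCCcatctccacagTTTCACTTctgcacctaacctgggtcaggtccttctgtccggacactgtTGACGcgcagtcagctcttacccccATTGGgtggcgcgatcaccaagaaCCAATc
H2-D1 (chr17:35262894-35263093, plus strand): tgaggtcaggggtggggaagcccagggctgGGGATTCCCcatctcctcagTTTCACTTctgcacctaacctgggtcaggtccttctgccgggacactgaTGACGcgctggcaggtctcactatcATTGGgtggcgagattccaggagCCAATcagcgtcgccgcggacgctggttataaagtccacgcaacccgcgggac
B2m (chr2:122147487-122147686, plus strand): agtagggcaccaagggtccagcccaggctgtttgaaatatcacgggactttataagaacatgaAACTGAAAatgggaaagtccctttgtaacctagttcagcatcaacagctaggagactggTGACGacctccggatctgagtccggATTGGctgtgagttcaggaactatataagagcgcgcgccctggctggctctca
Psmb9-Tap1 (chr17:34187331-34187555, plus strand, with Psmb9 reading leftward and Tap1 rightward): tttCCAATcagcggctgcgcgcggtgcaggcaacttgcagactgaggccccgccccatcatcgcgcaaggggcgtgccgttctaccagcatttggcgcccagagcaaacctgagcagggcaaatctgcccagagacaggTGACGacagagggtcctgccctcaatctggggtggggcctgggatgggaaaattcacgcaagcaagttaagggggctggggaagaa

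In all 3 chain promoters, TGACG was followed by ATTGG with their first bases 25 apart, a spacing held by 31 of 32851 promoters (0.094%). Only the spacing that these 3 promoters hold was searched, and the 31 include their own windows, so the share is a description and no test. The IRF core preceded TGACG by 49 bases in *H2-K1* and *H2-D1* and by 59 in *B2m*, counted from first base to first base. *H2-K1* and *H2-D1* are recent copies and were identical at 90.5% of 253 aligned promoter bases, with gaps left out. *B2m*, on another chromosome, matched *H2-K1* at 77.1% of 240 bases and *H2-D1* at 70.2% of 255. Leaving out gaps raises such percentages, and unrelated promoters were not aligned for comparison. The kappaB-like letters were found in *H2-K1* and *H2-D1* (3.95% of all promoters hold them) and the IRF core in these 2 and *B2m* (23.9%). TGACG stood in 5 members, with *Psmb9* and *Tap1* sharing 1 copy, against 20.8% of promoters, and CCAAT in 6, adding *Tapbp*, against 37.4%. *Psmb10* held CACGTG, the E box of the Myc network (7.15%). A match is a description of letters, and no binding was measured.

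The values are the deposited ones, which are reads per gene scaled to the size of the library with a further factor per sample, and levels between genes are compared only per kb of exon. Exon length is that of all GENCODE transcripts of a gene merged, which can exceed the length of any single transcript, so levels per kb are approximate. The libraries held 14384695 to 25673919 reads on genes. Markers of hepatocytes, adipocytes and muscle fibres were high in the tissue so labelled, with summed values of at least 42128 in liver, 3453 in adipose tissue and 105234 in muscle. *Mlx* itself had values of 18.8 to 32.4 (liver), 8.19 to 13.9 (adipose tissue) and 7.04 to 11.6 (muscle), which does not check the labels, since the undeleted exons are still read. Changes with age are log2(value + 1) differences, 20 minus 5 months, from limma with Benjamini-Hochberg adjustment over all genes tested, and the added 1 makes the changes of low genes too small. A gene was called at an adjusted p under 0.05. Exact 50-base words found in other genes too made up 9.63% of the *H2-K1* exons and 12.8% of the *H2-D1* exons, so reads could be split between copies. The values of both are less certain than those of *B2m*, *Psmb9*, *Psmb10* and *Nlrc5*, with 0%.

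From 5 to 20 months, most of the class I and immunoproteasome genes rose in liver and adipose tissue of *Mlx*KO mice and none was called in muscle. In liver, 7 of 10 were called higher, where 10% of all 12654 genes tested were, and in adipose tissue 9 of 10, where 9.75% of 14005 were. In muscle, 0 of 10 were called, against 9.13% of 12720 genes called higher. Only *H2-K1* was under an unadjusted p of 0.05 there, and edgeR and DESeq2 also called 0. None was called lower in any tissue. The 10 had median log2 changes of 0.67 (liver), 0.86 (adipose tissue) and 0.25 (muscle), beside 0.0011, 0.0072 and 0.017 over all genes. The 3 immunoproteasome subunits had the largest changes in both responding tissues.

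**Figure D1:**
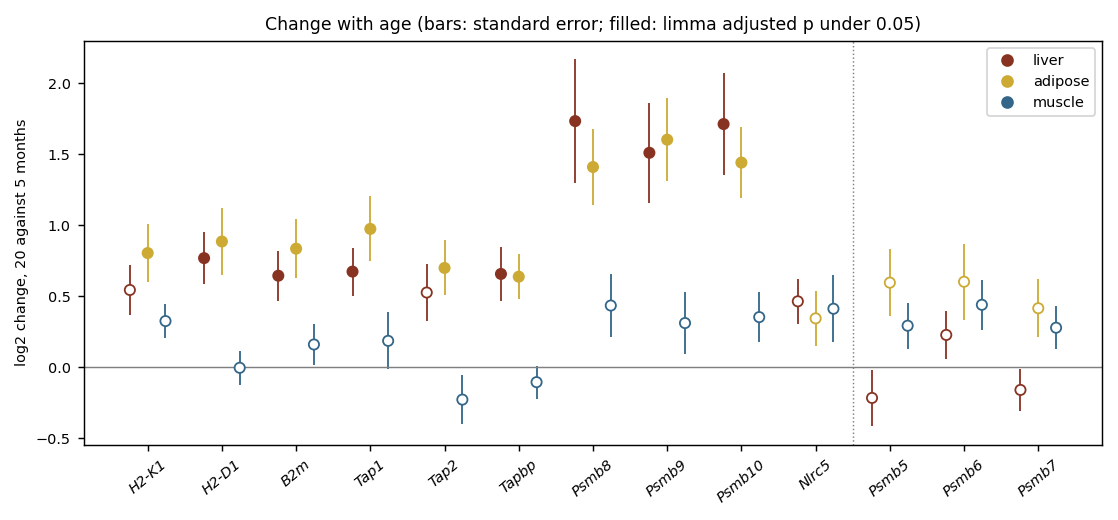
Log2 change from 5 to 20 months (y axis) of the 10 genes and, right of the dotted line, the 3 constitutive proteasome subunits, in liver, adipose tissue and muscle; bars are standard errors and filled points have a limma adjusted p under 0.05. The subunits *Psmb8*, *Psmb9* and *Psmb10* stand at 1.41 to 1.73 in liver and adipose tissue, above the other 7 genes, and every muscle point is open.

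The class I chains were the most abundant members. *H2-K1* encodes the K heavy chain. Its value in the 5-month livers was 1517, 1486, 1491 and 1336, and in the 20-month livers 1613, 2448, 2665, 1882 and 2178. All 5 older livers were above all 4 younger ones, yet the change of 0.54 (SE 0.18) had an adjusted p of 0.0506 and was not called. It was called in 8 of 13 settings that kept all samples. In adipose tissue the values were 483, 359.5, 444 and 470.1 at 5 months and 605, 682, 1142, 722 and 758 at 20 months, again without overlap, a change of 0.80 (SE 0.20, limma adjusted p = 0.0302). Sample 38 was far above the other 4. Muscle held 70.9 to 93.2 at 5 months and 88.7 to 119 at 20 months, which overlap (0.33, SE 0.12, limma adjusted p = 0.0783).

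*H2-D1*, the D heavy chain, stood at 811, 749, 776 and 681 in the 5-month livers and at 856, 1479, 1547, 1178 and 1508 in the 20-month livers. The groups did not overlap and the change was 0.77 (SE 0.19, limma adjusted p = 0.0199), a 1.74-fold ratio of means. Adipose values were 761, 588, 873 and 777 and then 998, 1415, 2092, 1384 and 1189, also without overlap (0.89, SE 0.24, limma adjusted p = 0.0359). In muscle the means were level, at 119.6 ± 16.4 (SD, n = 4) and 119.2 ± 15.6 (SD, n = 5). Its 95% interval for the muscle change ran from -0.26 to 0.25, below the estimates in the other 2 tissues.

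*B2m*, the light chain that every class I molecule needs, had values of 1346, 1215, 1341 and 1276 in the 5-month livers and 1567, 2657, 2327, 1901 and 1837 in the 20-month livers. The young livers differed from each other by a CV of 4.78% and the old ones by 21%, with no overlap of the ages (0.64, SE 0.18, limma adjusted p = 0.0294). In adipose tissue it went from 657, 497, 739 and 719 to 897, 1402, 1398, 999.6 and 1157 (0.84, SE 0.21, limma adjusted p = 0.0292). These groups also stood apart. In muscle the 5-month values of 65.3 to 103 lay across the 20-month values of 83.1 to 114 (0.16, limma adjusted p = 0.431).

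**Figure D2:**
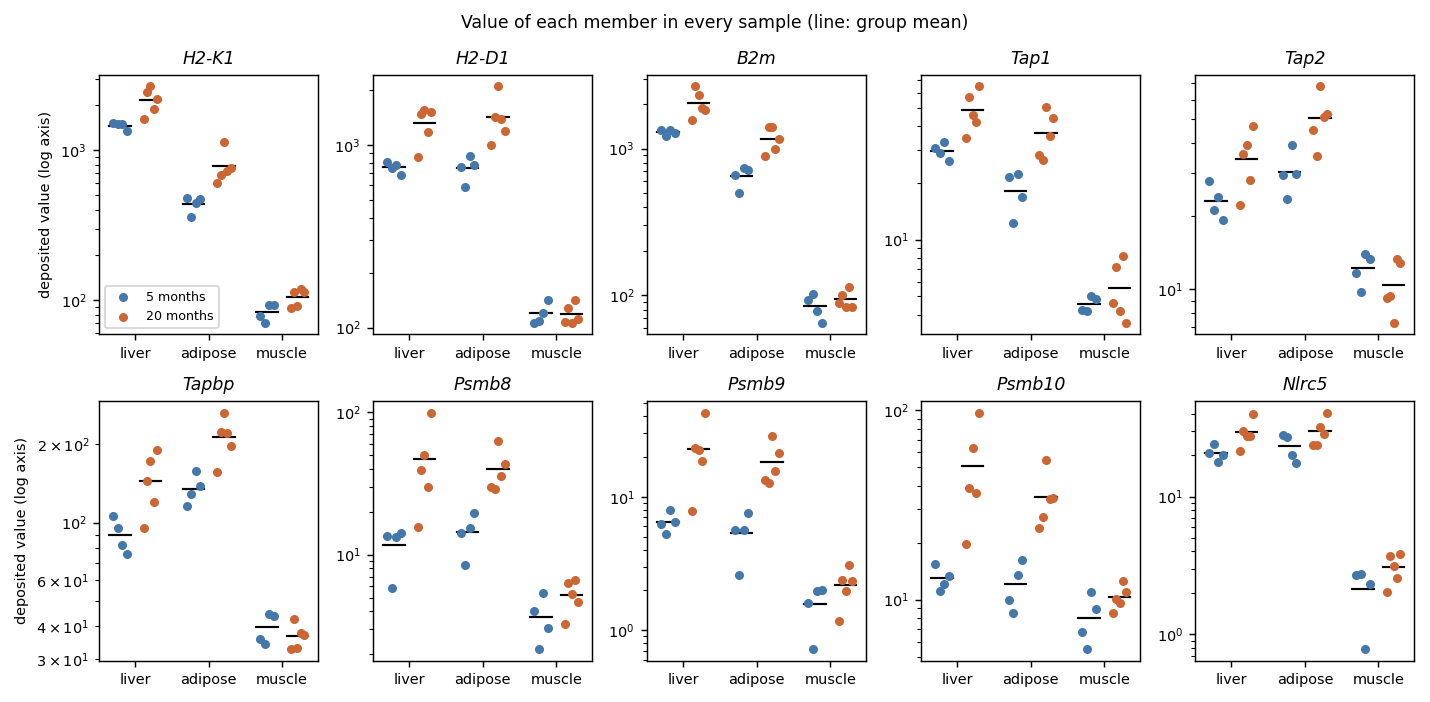
Deposited value (log y axis) of each of the 10 genes in every sample, by tissue, with 5-month samples in blue, 20-month samples in orange and group means as lines. Older liver and adipose samples sit above younger ones for most genes, and the muscle mean is the lowest of the 3 tissues for every gene at both ages.

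Peptide transport and loading had lower levels per kb than the chains. *Tap1* encodes a subunit of the TAP transporter. It was at 30.6, 28.7, 32.9 and 26.2 in the 5-month livers and 34.5, 57, 45.9, 41.9 and 64.9 in the 20-month livers, without overlap (0.67, SE 0.17, limma adjusted p = 0.0225). Adipose samples held 21.5, 12.3, 22.3 and 16.7 and then 28.2, 26.4, 50.5, 35.4 and 44.1 (0.97, SE 0.23, limma adjusted p = 0.0264). Here too every older sample was above every younger one, and the ratio of means was 2.03. *Tap2*, the other subunit, read 27.9, 21.2, 24 and 19.3 in young livers and 22.1, 36, 39.1, 28.1 and 46.8 in old ones. Sample 16 fell inside the young range, and the change was not called (0.53, SE 0.20, limma adjusted p = 0.0824). In adipose tissue *Tap2* was 29.4, 23.6, 39.1 and 29.6 and then 45.2, 35.3, 68.1, 50.8 and 52.4, called higher with a single overlapping sample, 37 (0.70, SE 0.19, limma adjusted p = 0.0377). *Tapbp* encodes tapasin. Its liver values were 106, 95.0, 81.7 and 75.5 against 95.6, 145, 173, 120.3 and 191 (0.66, SE 0.19, limma adjusted p = 0.0374), and its adipose values 116, 129, 158 and 138 against 157, 223, 264, 221 and 197 (0.64, SE 0.16, limma adjusted p = 0.0300). In each case only the lowest old sample, 16 or 36, fell within the young range. In muscle, none of the 3 was called, and *Tap2* (-0.23) and *Tapbp* (-0.11) had estimates below 0, with *Tap1* at 0.19.

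The immunoproteasome subunits changed most. *Psmb8* (LMP7) carries the chymotrypsin-like activity. The 5-month livers held 13.6, 5.82, 13.3 and 14.2 and the 20-month livers 15.7, 39.4, 50.3, 29.8 and 99.5. All old livers were above all young ones, but by very unequal amounts, from just above the young range in sample 16 to a level 6.35 times higher in sample 74 (1.73, SE 0.44, limma adjusted p = 0.0228). Adipose tissue went from 14.1, 8.5, 15.5 and 19.6 to 29.7, 29, 63.2, 35.7 and 43.1, with no overlap (1.41, SE 0.27, limma adjusted p = 0.0156). *Psmb9* (LMP2) replaces PSMB6. It was at 6.30, 5.24, 7.98 and 6.48 in young livers and 7.89, 23.3, 22.3, 18.5 and 42.6 in old ones, where sample 16 again lay within the young range (1.51, SE 0.35, limma adjusted p = 0.0179). The adipose values were 5.62, 2.59, 5.64 and 7.6 and then 13.4, 12.6, 28.4, 15.6 and 21.3, well apart (1.60, SE 0.29, limma adjusted p = 0.0138). *Psmb10* (MECL-1) replaces PSMB7. Livers held 15.3, 11.1, 12.1 and 13.3 at 5 months and 19.6, 39, 63.1, 36.4 and 97.1 at 20 months, and adipose samples 9.92, 8.5, 13.5 and 16.2 and then 23.9, 27.3, 54.3, 34.0 and 34.5. Neither tissue's ages overlapped, and the changes were 1.71 (SE 0.36, limma adjusted p = 0.0130) and 1.44 (SE 0.25, limma adjusted p = 0.0120).

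In muscle all 3 subunits were low. *Psmb9* was at 1.61, 0.726, 1.96 and 2.02 at 5 months, which is 9 to 29 reads, and at 1.17, 2.39, 1.95, 3.09 and 2.35 at 20 months. *Psmb8* ranged from 2.18 to 5.4 and then 3.26 to 6.61, and *Psmb10* from 5.48 to 11 and then 8.48 to 12.5. The ages overlapped for each, with changes of 0.31, 0.43 and 0.35 (limma adjusted p = 0.325, 0.179 and 0.171). The upper ends of the 95% intervals were 0.79, 0.92 and 0.74 on the log2(value + 1) scale, which compresses changes at values this low.

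Groups without overlap were counted as well. All 20-month samples stood above all 5-month samples for 6 of the 10 genes in liver (*H2-K1*, *H2-D1*, *B2m*, *Tap1*, *Psmb8*, *Psmb10*), where 8.46% of all genes tested did, for 7 in adipose tissue (all but *Tap2*, *Tapbp* and *Nlrc5*), against 8.3%, and for 0 in muscle, against 8.63%. The counts of calls depended on single libraries. In liver the 7 calls became 1 without X5L5001, 3 without X5L5239, 4 without sample 17 and 2 without sample 18, and 10 without sample 16. In adipose tissue the 9 became 3 without X5F4299 or X5F5001, 5 without sample 37, 4 without 38 and 3 without 39 or 40. Over these fits the number of all genes called also moved, from 959 to 3557 in liver and from 397 to 3748 in adipose tissue. *Psmb8*, *Psmb9* and *Psmb10* were called in adipose tissue in each of the 9 fits that left out 1 sample, and *Psmb10* in each of the 9 in liver. In muscle, 2 genes (*H2-K1* and *Psmb10*) were called without X5S5238 and 0 in the other 8 fits.

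RNA of the catalytic subunits that replace each other was compared as a ratio within each sample, which does not depend on how samples are scaled. The exchange itself is one of proteins, which were not measured here. In liver, *Psmb8*/*Psmb5* was 0.114, 0.0504, 0.0775 and 0.0879 at 5 months and 0.101, 0.331, 0.411, 0.210 and 1.28 at 20 months, so the geometric mean rose 4.12-fold (two-sided exact permutation p = 0.0238, and 0.0429 after adjustment over the 9 ratios). Only sample 16 overlapped with the young livers. *Psmb10*/*Psmb7* was 0.108, 0.0830, 0.0653 and 0.0717 and then 0.119, 0.282, 0.436, 0.227 and 0.867, without overlap (3.85-fold, exact permutation p = 0.0159, adjusted 0.0357). *Psmb9*/*Psmb6* ranged from 0.0519 to 0.0706 and then from 0.0580 to 0.485 (2.66-fold, exact permutation p = 0.0397, adjusted 0.0595). It missed the threshold with sample 16 and passed it without, at an adjusted exact permutation p of 0.0429.

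All 3 ratios rose in adipose tissue with no overlap between ages. *Psmb8*/*Psmb5* was 0.436, 0.313, 0.487 and 0.400 at 5 months and 0.732, 0.560, 0.744, 0.666 and 1.07 at 20 months (1.82-fold, exact permutation p = 0.0159). *Psmb9*/*Psmb6* went from 0.103 to 0.170 up to 0.216 to 0.443 (2.27-fold) and *Psmb10*/*Psmb7* from 0.211 to 0.278 up to 0.378 to 0.612 (2.14-fold), both at 0.00794, the smallest p that 126 splits can give. Each of the 3 had an adjusted p of 0.0357 by this exact permutation test. In muscle the geometric means changed 1.19-fold, 1.05-fold and 1.08-fold, with overlapping ages and exact permutation p of 0.405, 0.857 and 0.524. Leaving out any liver sample other than 16 took the 2 liver ratios over the threshold (adjusted exact permutation p = 0.0643 to 0.129). Leaving out any of the 20-month adipose samples left all 3 adipose ratios without overlap, at log2 differences of 0.73 or more. With 4 against 4 samples the smallest exact permutation p is 0.0286, and what it comes to after adjustment depends on the other ratios among the 9. For these adipose fits it came to 0.0514, so the adipose ratios could not be called however far apart the ages stood. For liver without sample 16 it came to 0.0429. When another 20-month liver was left out, it came to 0.0643, the value of *Psmb10*/*Psmb7* in each such fit. The ages of that ratio stayed without overlap there, so it could not be called either. *Psmb8*/*Psmb5*, where sample 16 overlapped, had an adjusted exact permutation p of 0.103 in those fits. When a 5-month liver was left out, this limit did not apply, and *Psmb10*/*Psmb7* was at 0.0804 to 0.121.

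**Figure D3:**
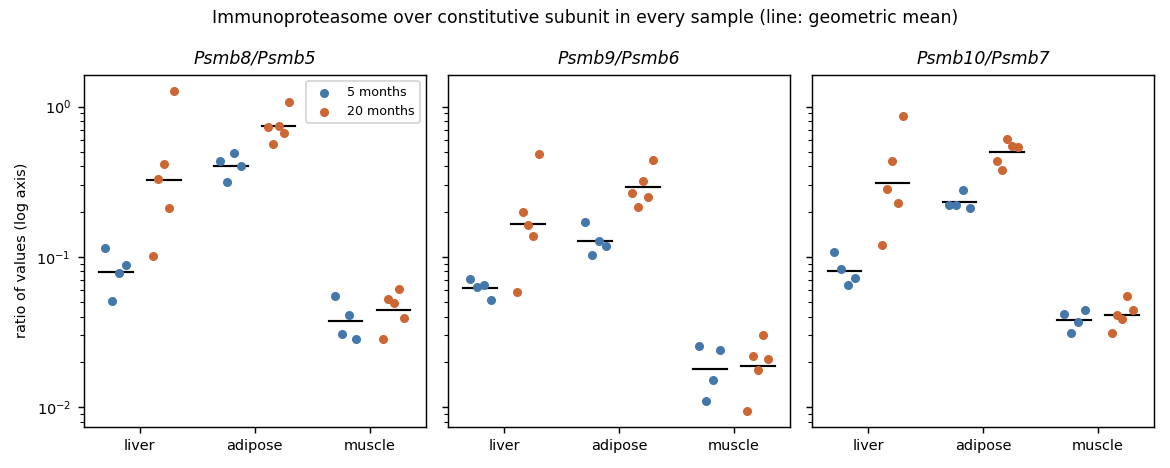
Ratio of each immunoproteasome subunit to the constitutive subunit it replaces (log y axis) in every sample, by tissue, with 5 months in blue, 20 months in orange and geometric means as lines. Adipose ages do not overlap for any ratio, sample 74 gives the highest liver ratios (1.28, 0.485 and 0.867), and no muscle ratio is above 0.0612.

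The constitutive subunits were not called in any tissue. *Psmb5*, *Psmb6* and *Psmb7* had log2 changes of -0.22, 0.23 and -0.16 in liver, 0.60, 0.60 and 0.42 in adipose tissue and 0.29, 0.44 and 0.28 in muscle (lowest limma adjusted p = 0.0950). *Psmb5* had 54.1% of its 50-base words in common with *Gm3375*, *Psmb5-ps* and *Mir686*, a microRNA gene that overlaps it, so its level is uncertain. Per kb of exon, mean *Psmb10* in adipose tissue was 7.05 beside 15.2 for *Psmb7* at 5 months and 20.4 beside 20.0 at 20 months. The near equality at 20 months rests on the merged exon lengths used, 1.705 kb for *Psmb10* and 3.421 kb for *Psmb7*. Without division by length, the ratio in these older samples was 0.378 to 0.612. In liver the same pair stood at 7.59 and 47.2, then 29.9 and 42.1. The other subunits of the 20S core, 11 genes that both forms of the proteasome share, had 0 called in liver and adipose tissue and 2 higher in muscle, *Psmb3* (0.42) and *Psmb1* (0.40).

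*Nlrc5*, the class I transactivator, was not called in any tissue. Livers held 20.8, 23.9, 17.8 and 19.9 and then 21.5, 30.1, 27.5, 27.3 and 39.4, with 4 of 5 old samples above the young range (0.46, SE 0.16, limma adjusted p = 0.0609). Adipose samples held 28, 26.9, 20.0 and 17.6 and then 23.8, 23.7, 31.7, 28.5 and 40.6, which overlap (0.34, limma adjusted p = 0.200). In muscle it was low, at 0.783 to 2.74 and 2.02 to 3.85, which is 10 to 56 reads (0.41, limma adjusted p = 0.225). Without its lowest old liver, sample 16, it was called in that tissue.

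*Irf1*, the interferon-induced factor that binds IRF sites, rose in liver. Its values were 26.3, 23, 18.8 and 20.0 at 5 months and 22.1, 42.8, 60.1, 44.0 and 115 at 20 months (1.14, SE 0.36, limma adjusted p = 0.0456). Among the old livers 16 was lowest and 74 highest, as for the immunoproteasome subunits. In adipose tissue *Irf1* was 23.2 to 31.1 and then 26.7 to 48.7 and missed the threshold (0.56, limma adjusted p = 0.0507), and in muscle it was 8.99 to 13.3 and 8.77 to 14.3. *Ifng*, interferon-gamma itself, was too low to test. It reached at most 21 reads, in adipose sample 38, and was at 0 in all 9 muscle samples, which allows up to 3 reads in each.

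A single fit over the 27 samples compared the age changes of the tissues with each other. Between liver and adipose tissue, 0 of the 10 differences were called, where 15.6% of all genes were, and 0 had an unadjusted p under 0.05. The estimates ran from -0.30 to 0.32, and their intervals were wide, for *Psmb8* from -0.73 to 1.37. Between liver and muscle, 3 were called (*H2-D1* 0.77, *Tapbp* 0.76, *Psmb10* 1.36, with limma adjusted p = 0.0384, 0.0265 and 0.0283), where 17.5% of genes were. Between adipose tissue and muscle, 3 were called as well (*H2-D1* 0.89, *Tap2* 0.93, *Tapbp* 0.74, with limma adjusted p = 0.0217, 0.0310 and 0.0345), against 14.7%. With the mouse as a replicate block this last count was 5, namely *H2-D1*, *B2m*, *Tap2*, *Tapbp* and *Psmb9*. *Psmb8* and *Psmb9* differed by 1.3 and 1.2 between liver and muscle but missed the threshold (limma adjusted p = 0.0781 and 0.0686). Between adipose tissue and muscle the 3 immunoproteasome subunits also missed it, *Psmb8* at 0.98 (interval -0.08 to 2.03, limma adjusted p = 0.198), *Psmb9* at 1.29 (limma adjusted p = 0.0568) and *Psmb10* at 1.09 (limma adjusted p = 0.0828). *Irf1* differed by 1.24 between liver and muscle (limma adjusted p = 0.0275). Between adipose tissue and muscle it differed by 0.66 and was not called (limma adjusted p = 0.254).

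These counts also moved with single libraries. The liver and muscle count of 3 was 1 without X5L5001, X5L5238, X5L5239 or X5S5238, 0 without liver sample 18 or X5S5239, and 6 without liver sample 16. The adipose and muscle count of 3 was 0 without X5F5001 and 1 without X5F4299, adipose sample 38, X5S5238, X5S5239 or muscle sample 58. It was 5 without X5F5238, X5F5239 or liver sample 74, 6 without liver sample 16 or muscle sample 59, and 7 without adipose sample 36.

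Levels in muscle stood well below those in the other tissues, with median log2 differences over the 10 genes of 2.01 (liver) and 1.75 (adipose tissue) at 5 months and 2.83 and 2.63 at 20 months. At 5 months, 9 of the 10 genes were called higher in liver than in muscle, where 36% of all genes were, and 9 were higher in adipose tissue than in muscle, where 41.9% were. *Psmb10* was the exception in both. At 20 months all 10 were called higher in liver (against 39.2% of genes) and all 10 in adipose tissue (against 42.1%). The ratio of the highest to the lowest tissue mean ran from 1.61 for *Psmb10* at 5 months to 21.8 for *B2m* at 20 months.

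Liver and adipose tissue differed from each other at 4 genes at each age, where 76.4% of genes did at 5 months and 74.5% at 20 months. *H2-K1* was 1458 ± 82.1 (SD, n = 4) in young liver and 439 ± 55.4 (SD, n = 4) in young adipose tissue, a log2 difference of 1.74 at 5 months and 1.48 at 20 months, and the 2 tissues did not overlap at either age. *B2m* was higher in liver by 1.0 and 0.81, also without overlap. *H2-D1*, by contrast, overlapped between them at both ages (0.02 and -0.10). *Tap1* was higher in liver at 5 months (0.70) and overlapped at 20. *Tapbp* was lower in liver at both ages (-0.59 and -0.57) and *Tap2* at 20 months (-0.55). These differences depended on how samples were scaled between tissues. With values rescaled without the 20 most abundant genes, the median of all genes between liver and adipose tissue moved from -0.07 to -0.88 at 5 months and from -0.06 to -0.70 at 20 months, *Tap1* came to -0.22, and with quantile normalization *B2m* turned to -0.65 at 5 months and -0.95 at 20 months and *H2-K1* to -0.07 at 20 months.

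Between genes, per kb of exon, *B2m* was far above its partners. In liver its mean went from 1505 to 2393 per kb, while *H2-K1* went from 496 to 734 and *H2-D1* from 293 to 509. *Tapbp* followed at 24.7 and 39.9, and *Psmb8*, *Psmb9* and *Nlrc5* were under 14 at both ages. In muscle the order differed, with *Psmb5* (107 and 127) above *B2m* (98.7 and 109.7), and *Nlrc5* was lowest of all at 0.251 and 0.360. These orders rest on the exon lengths used. Without division by length, the liver means of *B2m* (1294.5 and 2058) were below those of *H2-K1* (1458 and 2157).

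The older livers were uneven, and mostly in the immunoproteasome. Over the 5 samples the CV was 68.2% for *Psmb8*, 54.9% for *Psmb9* and 58.9% for *Psmb10*, against 19.6% for *H2-K1* and 21% for *B2m*. Sample 16 was the lowest old liver for all 10 genes, and sample 74 was the highest for 7, all but the 3 class I chains, which were highest in 18 (*H2-K1*, *H2-D1*) and 17 (*B2m*). Among the old adipose samples, 38 was highest for 8 genes and 36 and 37 were each lowest for 5. Of the young adipose samples, X5F5001 was lowest for 8, and the muscle of the same mouse, X5S5001, was lowest for 7 but highest for *B2m* and *Nlrc5*. Its liver, X5L5001, was lowest for 4 and highest for *Nlrc5*, while X5L5239 was lowest for 5. In old muscle, sample 59 was highest for 8.

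**Figure D4:**
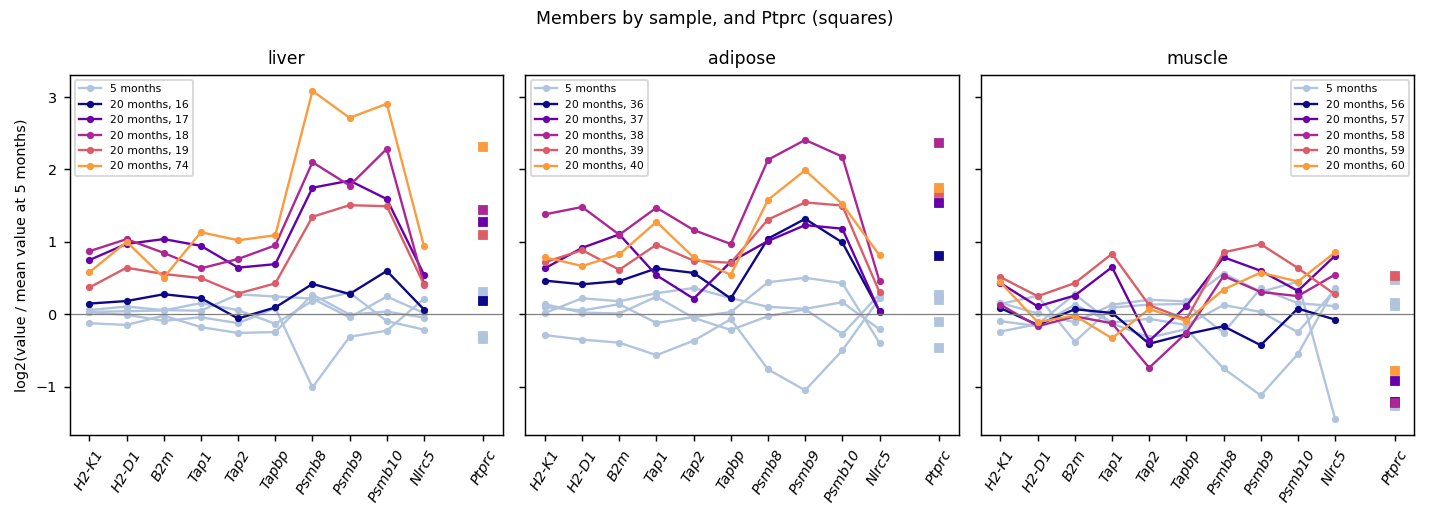
Log2 ratio of each sample's value to the 5-month mean of its tissue (y axis) for the 10 genes, 1 line per sample, and for the leukocyte gene *Ptprc* (squares at the right of each panel). In liver, sample 16 runs along the young samples and sample 74 leaves them at *Psmb8*, *Psmb9* and *Psmb10*. Adipose sample 38 is highest for 8 of the 10 genes, all but *B2m* and *Nlrc5*, and in muscle the ages mix.

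A marker of all leukocytes moved with these genes in liver and adipose tissue. *Ptprc* (CD45), found on all leukocytes, was 8.27, 12.9, 8.48 and 12.1 in young livers and 11.9, 25.2, 28.4, 22.4 and 51.7 in old ones (1.22, SE 0.32, limma adjusted p = 0.0272). In adipose tissue it went from 45.2, 28.5, 47.7 and 36.7 to 68.7, 115, 204, 126 and 132 (1.63, SE 0.28, limma adjusted p = 0.0118). Samples 16, 74 and 38 take the same places for *Ptprc* as for the immunoproteasome subunits. Muscle held 2.19 to 7.34 and then 2.24 to 7.57 (-0.47, limma adjusted p = 0.310), with sample 59 again the highest. In these bulk samples, more cells of a type and more RNA per cell cannot be told apart.

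By cell type, 3 of 8 macrophage markers were called higher in liver, where their sum went from 246 to 371 up to 280.2 to 931 (highest in 74), and 2 of 8 in adipose tissue, where it went from 819 to 1835 up to 1237 to 5791 (highest in 38). In muscle 4 of the 8 were called lower, with sums of 151 to 239 and then 85.1 to 166. T cell markers were called higher for 2 of 2 tested in liver (sums 2.25 to 5.52, then 5.34 to 20.9) and 3 of 8 in adipose tissue (8.94 to 19.9, then 10.7 to 92.5). In muscle no T cell marker was high enough to test, the sums were 0.235 to 0.845 and then 0.399 to 1.76, and *Cd3g* and *Cd8b1* were at 0 in all 5-month samples. B cell markers were called higher for 4 of 5 in liver (1.31 to 8.24, then 7.05 to 15.8) and 5 of 5 in adipose tissue (3.25 to 18, then 12.3 to 169). Counts for the other cells were small, with 1 of 2 plasma cell, 0 of 2 NK cell, 1 of 3 dendritic cell and 0 of 2 neutrophil markers higher in liver, and 2 of 3, 1 of 1, 1 of 5 (with 1 lower) and 1 of 2 in adipose tissue. The plasma cell sum did not rise in liver (495 to 669, then 276 to 584), unlike in adipose tissue (24.8 to 107, then 73.3 to 240). Of 5 endothelial markers, 1 was called lower in liver, 3 in adipose tissue (sums 568 to 1275, then 351 to 672) and 1 in muscle, and the others were not called. Hepatocyte marker sums in liver were 94479 to 146551 at 5 months and 42128 to 93545 at 20 months, with 0 of 4 called. The part of these cells in the class I and immunoproteasome result was not tested.

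The other genes of the pathway were counted by role. Among the other class I heavy chains, 5 of 9 tested rose in liver and 5 of 9 in adipose tissue, and 1 of 7 in muscle. *H2-T22* (1.46 in liver, 0.51 in muscle) and *H2-Q7* (1.15 in liver, 1.16 in adipose tissue) were called, and *H2-Q1* (1.51) was tested in liver alone. Reads of these copies may be split among them. Of the class I-like molecules, ligands and presenters of other kinds, 1 of 7 rose in liver (*Raet1e*, an NKG2D ligand, 1.63), 0 of 5 in adipose tissue and 1 of 6 in muscle (*Mr1*, which presents vitamin metabolites, 0.35).

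Proteasome activators and assembly factors, 9 genes, had 2 higher and 2 lower in liver, 3 higher in adipose tissue and 2 higher in muscle. *Psme2*, a subunit of the PA28 cap that interferon-gamma induces, was called in all 3 tissues (0.68, 0.92 and 0.42), its partner *Psme1* in liver (0.84) and adipose tissue (0.59), and *Psme4*, the PA200 cap, was lower in liver (-0.60). The peptide-loading chaperones and trimming enzymes had 1 of 8 higher in liver (*Sec61b*, a translocon subunit, 0.74), 1 higher in adipose tissue (*Tapbpl*, the tapasin relative TAPBPR, 0.82) and 1 lower in muscle (*Sec61a1*, -0.66). Cytosolic peptidases, which cut peptides before transport, had 3 of 7 lower in liver, among them *Tpp2* (-0.59) and *Lap3* (-0.45), 1 higher in adipose tissue (*Dpp3*, 0.62) and 0 called in muscle.

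Upstream, the listed class I transcription factors had 2 of 14 higher in liver, 2 of 14 in adipose tissue, and 3 higher and 2 lower of 13 in muscle. *Ciita*, the class II counterpart of *Nlrc5*, was called in liver (1.37) and adipose tissue (1.10), and *Irf8*, a myeloid factor, in adipose tissue (1.3). Interferon ligands, receptors and their kinases had 1 higher (*Socs1*, 0.65) and 1 lower (*Jak1*, -0.39) of 8 in liver, 1 higher of 8 in adipose tissue (*Tyk2*, 0.62) and 4 lower of 7 in muscle (*Jak1*, -0.78, among them). Interferon-gamma response genes were called higher for 11 of 12 (liver), 9 of 12 (adipose tissue) and 2 of 9 (muscle). Their medians were 1.71, 1.01 and 0.51. *Ubd* (FAT10, a ubiquitin-like tag) had the largest changes, 4.06 and 3.64, followed in liver by the chemokine *Cxcl10* (2.32) and the GTPase *Gbp3* (2.13), which was also called in adipose tissue (1.25) and muscle (0.66). Type I interferon response genes rose for 7 of 10 in liver, with *Irf7* at 2.43, *Ifit1* at 2.16 and *Ifit3* at 2.14, for 3 of 10 in adipose tissue and for 0 of 9 in muscle. MHC class II genes, found on antigen-presenting cells, rose for all 6 in liver, for 3 of 6 in adipose tissue and for 0 in muscle, with *H2-Eb1* at 1.78, 0.82 (not called) and -0.09.

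Position along chromosome 17 was examined with 25 neighbouring genes that are no members. In liver 7 of 21 tested were called higher, in adipose tissue 6 of 24 with 1 lower, and in muscle 0 of 20 with 1 lower (*Col11a2*). Their median log2 changes were 0.20, 0.32 and -0.09, below those of the 10 genes in liver and adipose tissue. In liver, those called were class II genes (*H2-DMa*, *H2-DMb1*, *H2-Ab1*, *H2-Aa*, *H2-Eb1*), the class I gene *H2-Q1* and *Rgl2*, while *Daxx*, *Ring1*, *Rxrb* and *Brd2*, which lie between or beside the members, were not called. Within the cluster itself, *Psmb9* and *Psmb8* changed by more than *Tap1*, which lies between them, and the difference of these changes was not tested. *Psmb9* and *Tap1* overlap on opposite strands in GENCODE models, as do *B2m* and *Patl2*, and the sources used here do not state whether counting used strand.

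**Figure D5:**
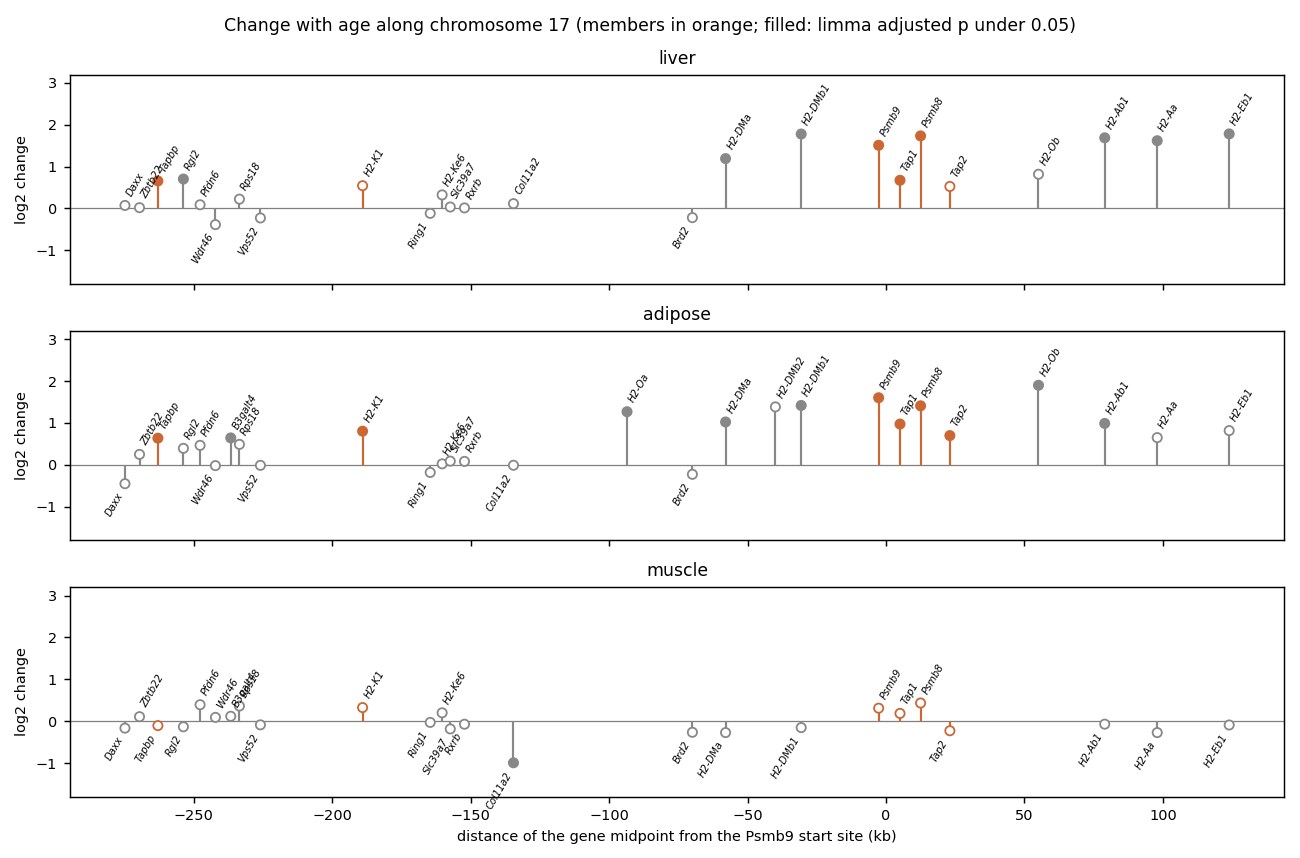
Log2 change from 5 to 20 months (y axis) of the members and their neighbours on chromosome 17, placed by the distance of the gene's midpoint from the *Psmb9* start site (x axis, kb), in 3 panels by tissue; members are orange and filled points have a limma adjusted p under 0.05. The filled points in liver are members, class II genes and *Rgl2*, those in muscle are 1 gene, *Col11a2*, and *H2-D1* lies outside the range plotted.

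Across the 27 samples, each gene centred on the mean of its tissue, the members ran together to different degrees. The Pearson correlation of a member with the mean of the other 9 was highest for *Psmb9* (0.973) and lowest for *Nlrc5* (0.501). Over the 45 pairs it ranged from 0.337 (*Tap2* and *Nlrc5*) to 0.964 (*Psmb8* and *Psmb10*), with a median of 0.832. Outside the members, the 8 most alike of 11014 genes were *AW112010* (0.946), *Trim5* (0.937), *Ppt1* (0.934), *Limd2* (0.932), *H2-Q4* (0.929), *Akr1b3* (0.927), *Gbp2* (0.925) and *Tmsb4x* (0.923). *AW112010* is an interferon-inducible transcript, *H2-Q4* a class I heavy chain and *Gbp2* an interferon-induced GTPase. *Ptprc* reached 0.842 and *Irf1* 0.842, while *Psmb5*, *Psmb6* and *Psmb7* stood at 0.230, 0.474 and 0.224. These points share the ages of the mice and the scaling of each sample, and within muscle alone the correlation of *Ptprc* was 0.022, against 0.932 in liver and 0.981 in adipose tissue.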

How the data were processed

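RNA of 27 tissue samples from *Mlx*KO mice was sequenced by the authors as directional, poly-A selected libraries, and reads were assigned to genes in CLC Genomics Workbench. The deposited signal, headed CPM, equals whole reads times a factor for each sample close to a TMM-type scaling (100% of values were whole reads within 0.1), so reads were recovered. Counting settings are not given in the sources used here. The members and gene lists were chosen with earlier results of these data known.

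Genes that reached a value of 1 in 4 or more samples were tested on log2(value + 1) with limma 3.58.1 (R 4.3.3) with a variance trend, on the 9 samples of a tissue for age and on all 27 samples for differences between tissues. P-values were adjusted by Benjamini-Hochberg, with a threshold of 0.05. Ratios of subunits were compared by exact permutation over 126 splits. Fits of the recovered reads by edgeR 4.0.16 or DESeq2 1.42.0, other scalings, filters and pseudocounts, sample weights and leaving out each sample were alternatives. Scripts were tested on simulated data. Libraries held 14384695 to 25673919 reads on genes, and the lowest member group (*Psmb9*, young muscle) rested on 9 to 29 reads per sample.

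At 5 months, the labels give the same animal numbers in all tissues. Deviations from group means correlated by -0.017 to 0.294 (mean 0.136, 12 pairs) within an animal, so the animal was a block in an alternative. At 20 months no numbers are shared between tissues, and p-values measure the spread between these samples. No pair of replicates was identical (48 pairs). Genes named were the 10 members, the 3 constitutive subunits, *Irf1*, *Ifng* and *Ptprc*, neighbours on chromosome 17 by position, and the 8 genes most alike. Each list added up to 3 genes, those with the largest absolute changes among the genes called in any of the 3 tissues. Promoters came from RefSeq. A regulator on the list of transcription factors is not reported here and was left out of its counts.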

Additional observations from a re-analysis of the deposited data

Results flagged for a closer look

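Among 84 groups of 4 or 5 values (the members and the genes named with them), 3 had a sample far from the rest, and chance gives about 1 in 20. *H2-K1* was 1142 in adipose sample 38, the highest of the older 5. *Psmb8* was 5.82 in X5L5001, the lowest of the younger livers. *Irf1* reached 14.3 in muscle sample 59, the highest of the older muscles.

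The change with age differed between liver and muscle for *H2-D1* by 0.77, *Tapbp* by 0.76, *Psmb10* by 1.36 and *Irf1* by 1.24 on the log2 scale. Between adipose tissue and muscle it differed for *H2-D1* by 0.89, *Tap2* by 0.93 and *Tapbp* by 0.74. Each had a limma adjusted p under the threshold in the fit over all samples.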

How the results depend on the processing

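In liver 5 to 10 genes were called higher over the alternatives that kept all samples. In adipose tissue 5 genes were called higher without a filter on low values, and 9 under the other alternatives that kept all samples. Liver and muscle differed in the age change at 1 gene without the filter and at 6 with sample weights. Adipose tissue and muscle differed at 6 with quantile normalization or sample weights, at 1 without the 20 most abundant genes, and at 5 with the mouse as a replicate block, which moved no other count by over 1.5 times. Without those 20 genes 7 members differed between liver and adipose tissue at 5 months, and the split of all genes with age in liver went from 1269 higher and 1239 lower to 2120 and 468, with the median of all genes at 0.16. In muscle the same rescaling gave 1836 higher and 987 lower. The sign turned for *H2-D1* in muscle (0.061 with quantile normalization, 0.079 without the 20 genes), for liver against adipose tissue in *B2m* (-0.65 at 5 months and -0.95 at 20 months, quantile), *H2-K1* (-0.069 at 20 months, quantile) and *Tap1* (-0.22 at 5 months, without the 20 genes), and for *Psmb9*/*Psmb6* in muscle (-0.13 with 1 added to both values). A mean value of at least 5 left *Psmb8*, *Psmb9* and *Nlrc5* untested in muscle. The causes were not tested.

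Leaving out each sample gave 1 to 10 calls (liver), 3 to 9 (adipose tissue) and 0 to 2 (muscle), 0 to 6 for liver against muscle and 0 to 7 for adipose tissue against muscle. *H2-D1* in muscle then ran from -0.069 to 0.083. Log2 differences of the ratios ran, in liver, from 1.55 to 2.47 (*Psmb8*/*Psmb5*), 1.02 to 1.79 (*Psmb9*/*Psmb6*) and 1.58 to 2.29 (*Psmb10*/*Psmb7*), in adipose tissue from 0.73 to 0.97, 1.03 to 1.32 and 1.02 to 1.19, and in muscle for *Psmb9*/*Psmb6* from -0.17 to 0.31.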
